A study of Mus musculus with 8 samples.

Results

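The cytochrome P450 genes were read from bead array profiles of primary mouse hepatocytes cultured with or without metformin. Members were all probes whose gene symbol is Cyp followed by a number and a letter, together with the P450 reductase gene Por. Cyp51 was left out. The rule found 44 genes with 62 probes among 10944 genes with 15301 named probes. No probe of Por, Cyp1a1, Cyp7a1 or Cyp4a10 was among them, so these were not analysed here. The members were 25 genes of families 1 to 3, 10 of family 4 and 9 of the sterol, bile acid and other families.

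The hepatocytes were isolated with collagenase from male C57Bl6/J mice. Metformin at 500 µM was given for 24 h to 4 cultures, which were set against 4 control cultures harvested at 24 h. Total RNA was taken with TRIzol, labelled with biotin and hybridised to Illumina bead arrays, 1 array per sample. The labels number the samples 1 to 4 within each group and do not say whether they came from different animals, so a p-value here reflects nothing beyond the scatter of these 8 samples, part or all of which may be technical. No agent or allele other than metformin is named for either group. In such cultures fewer cells of a type and less RNA per cell cannot be told apart.

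P450s are haem enzymes that insert an oxygen atom into their substrates with electrons passed on by P450 reductase or, in mitochondria, by ferredoxin. In liver, families 1 to 3 oxidise drugs, toxins and steroids, and their transcription follows the receptors Ahr, CAR (Nr1i3) and PXR (Nr1i2). Family 4 hydroxylates fatty acids and eicosanoids at the chain end, and its Cyp4a genes are known targets of the fatty acid receptor PPARα. Further families convert cholesterol to bile acids or process steroid hormones, vitamin D and retinoic acid. Hepatocytes in culture are known to lose much of their P450 expression within days of plating. Metformin lowers glucose output by hepatocytes and blocks respiratory complex I.

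Values are log2 intensities as deposited, which run from 4.16 to 14.4 with a median of 6.48 on the arrays. A difference is metformin minus control on that log2 scale. Each gene was read from its brightest probe, and a gene was called when limma's p, adjusted over all 10944 genes, was under 0.05. Of the 44 P450 genes, 10 lay among the 25% of genes with the lowest means and 20 lay below the array median. Near that floor a difference in transcript is compressed.

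Cyp2b10 was the single P450 gene that passed the threshold in the fit without the replicate number, and it rose with metformin. That is 1 of 44 P450 genes (2.27%), against 6.76% of all genes called (3.32% higher and 3.44% lower). With the replicate number as a block in the limma fit, 3 P450 genes (6.82%) were called, against 8.49% of all genes (4.41% higher and 4.08% lower). These were Cyp2b10 and Cyp2a5, both higher, and Cyp2d9, lower. At an unadjusted p under 0.05, 7 P450 genes (15.9%) passed, 5 higher and 2 lower, against 23.8% of all genes (12.7% higher and 11.1% lower). In each of these 3 counts the share of P450 genes called in either direction was below that of all genes. The counts use the same values, and the gaps were not tested. By pair sign the share lay above, with 1 sign in all 4 pairs for 43.2% of P450 genes against 33.8% of all genes.

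By the difference of group means the P450 genes had no common direction. It was positive for 23 genes and negative for 21, with a median of 0.02, beside a median of 0.01 over all genes. Of the 44 genes, 14 were higher and 5 lower in all 4 same-numbered pairs, against 18.2% and 15.6% of all genes. The median size of the difference without its sign was 0.18 for P450 genes and 0.20 for all genes. Of the 44 genes, 24 differed by less than 0.25 and 6 by more than 0.5. The arrays overlapped between the groups for all but 2 P450 genes (4.55%), Cyp2b10 and Cyp24a1, whose metformin values all lay above the control values. For comparison, the groups did not overlap for 15.3% of all genes (7.7% above and 7.57% below).

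**Figure D1:**
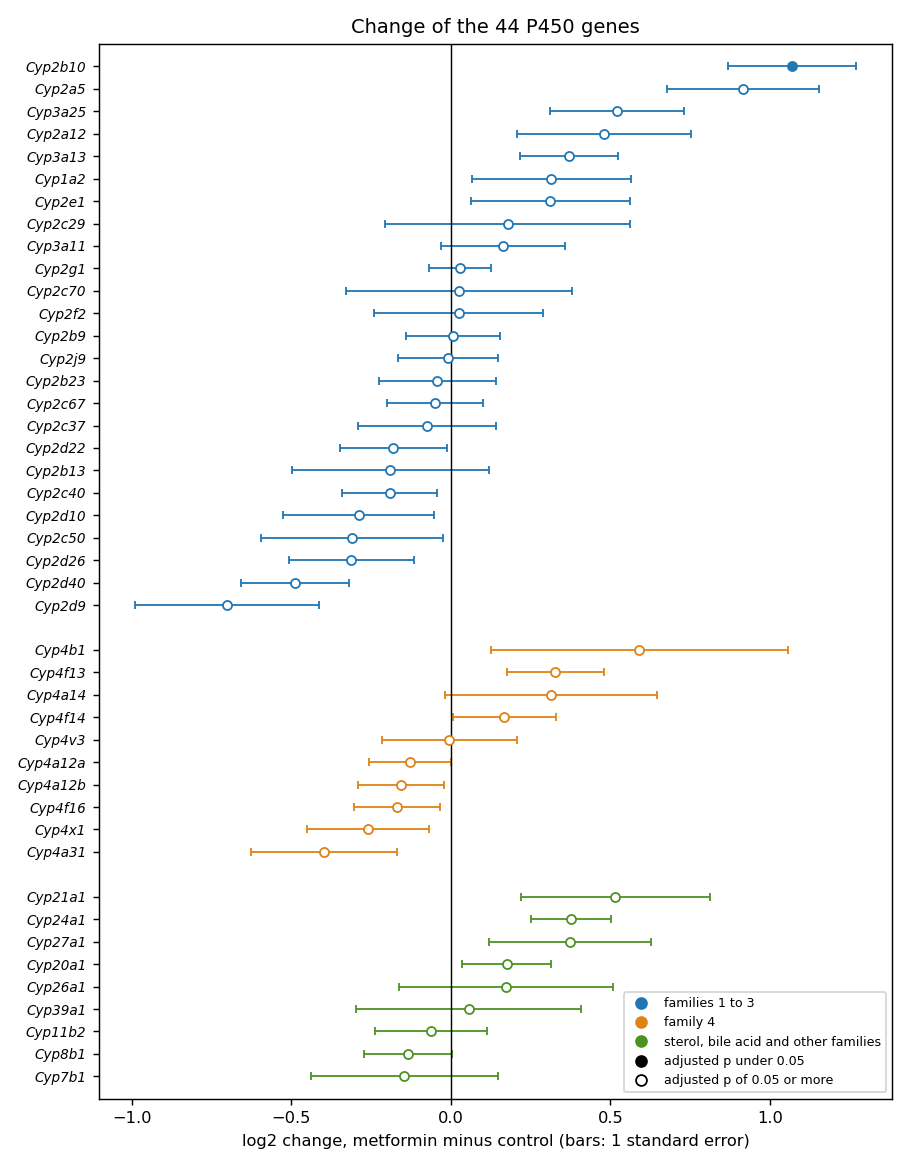
Difference in log2 intensity, metformin minus control, for each of the 44 P450 genes, ordered within families 1 to 3, family 4 and the other families; points are limma estimates from 4 metformin and 4 control arrays and bars are 1 standard error. Cyp2b10, at 1.07, is the only filled point (adjusted p under 0.05), and Cyp2d9, at -0.70, lies at the other end.

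The 25 genes of families 1 to 3, which are most of the 44 members, held all of the P450 genes called by either fit. That is 1 of 25 without and 3 of 25 with the replicate block, beside 6.76% and 8.49% of all genes. So few calls do not set these families apart from the others. The 25 genes split into 13 with a positive and 12 with a negative difference, with a median of 0.01 and a range of -0.70 to 1.07. Cyp2b10 encodes the steroid and drug hydroxylase that is the usual mouse readout of CAR. It had log2 intensities of 6.72, 7.51, 6.79 and 7.42 with metformin, against 6.16, 5.96, 6.23 and 5.83 in control cultures. Every metformin array was above every control array, and metformin replicates 2 and 4 were clearly above replicates 1 and 3. The means were 7.11 ± 0.41 with metformin and 6.04 ± 0.18 in controls (SD, n = 4 each), a difference of 1.07 (SE 0.20) or 2.10-fold, with a limma adjusted p of 0.0199. The call was lost without control replicate 2, control replicate 4 or metformin replicate 2 (limma adjusted p 0.0554, 0.0544 and 0.0559), while the difference stayed between 0.94 and 1.20 when any single array was left out. A second, dimmer Cyp2b10 probe averaged 4.42 with metformin and 4.33 in controls, so the call rests on the brighter probe, and the mean of both probes differed by 0.58. How far that probe tells Cyp2b10 from other Cyp2b genes was not tested.

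Cyp2a5, the mouse coumarin 7-hydroxylase and a nicotine oxidase, had the next highest difference. Its log2 intensities were 11.82, 11.94, 12.002 and 11.16 with metformin, against 11.16, 11.07, 10.74 and 10.29 in control cultures. The groups touched at 11.16, where the lowest metformin array, replicate 4, met the highest control array, replicate 1. The difference was 0.91 (SE 0.24) or 1.88-fold, with a limma adjusted p of 0.0505, just over the threshold. Within the same replicate number the metformin array was higher by 0.66, 0.87, 1.26 and 0.87, and with the replicate block the adjusted p was 0.0153 in limma. Its 4 probes all gave positive differences, of 0.49 to 1.06. Cyp2a4, a near-identical steroid hydroxylase gene that was not analysed here, may share signal with these probes.

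Cyp2d9, a male-predominant testosterone 16α-hydroxylase of mouse liver, had the lowest difference of any P450 gene. It had 5.85, 5.06, 4.89 and 4.60 with metformin, against 6.40, 5.63, 5.79 and 5.38 in control cultures, again in log2 intensity. Metformin replicate 1 lay above 3 of the 4 control arrays, so the groups overlapped, yet each metformin array was below the control array of its own number. The difference was -0.70 (SE 0.29) or 0.615-fold, with a limma adjusted p of 0.177 without and 0.0207 with the replicate block. Some Cyp2d genes are near-identical in sequence, and how far the probes tell Cyp2d genes apart was not tested.

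The promoters of Cyp2b10, Cyp2a5 and Cyp2d9 are shown because these were the 3 P450 genes called by either fit. They come from RefSeq on GRCm38.p6 and cover the 250 bases before the annotated transcript start, 5′ to 3′ on the gene's strand. Capitals mark matches, on either strand, to 5 searched motifs: the nuclear receptor half-sites AGGTCA and AGTTCA, the Ahr element core GCGTG, the Hnf1 half-site GTTAAT and the TATA box TATAAA.
Cyp2b10, chr7:25897408-25897657, plus strand: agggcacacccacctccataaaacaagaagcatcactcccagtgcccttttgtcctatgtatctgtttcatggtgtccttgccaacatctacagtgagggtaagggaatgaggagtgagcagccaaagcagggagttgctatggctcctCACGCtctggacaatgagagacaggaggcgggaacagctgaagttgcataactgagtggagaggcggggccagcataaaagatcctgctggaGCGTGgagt
Cyp2a5, chr7:26835089-26835338, plus strand: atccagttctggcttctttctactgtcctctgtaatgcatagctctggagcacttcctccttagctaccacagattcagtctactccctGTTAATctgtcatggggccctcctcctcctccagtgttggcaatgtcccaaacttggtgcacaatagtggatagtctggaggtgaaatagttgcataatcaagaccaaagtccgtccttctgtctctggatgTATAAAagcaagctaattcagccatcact
Cyp2d9, chr15:82452127-82452376, plus strand: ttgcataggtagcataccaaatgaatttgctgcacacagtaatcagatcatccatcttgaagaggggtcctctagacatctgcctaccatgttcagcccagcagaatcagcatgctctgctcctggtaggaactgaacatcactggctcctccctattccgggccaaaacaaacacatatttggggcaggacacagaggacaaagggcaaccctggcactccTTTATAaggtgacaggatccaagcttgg
Cyp2b10 held 2 GCGTG matches, the first on the minus strand and starting 101 bases before the transcript start, the second 9 bases before it. GCGTG occurred in 28.2% of 27025 RefSeq promoters of this length and in 6 of the 32 P450 promoters in the table. Cyp2a5 held GTTAAT and TATAAA, starting 161 and 29 bases before its start, and Cyp2d9 held TATAAA on the minus strand, 28 bases before its start. TATAAA was in 13.0% of all promoters and in 13 of the 32 P450 promoters, while GTTAAT was in 6.52% and 3 of 32. No AGGTCA (13.8% of all promoters, 8 of 32) or AGTTCA (11.9%, 7 of 32) lay in these 3 windows. The matches describe the letters only. The phenobarbital-responsive region of Cyp2b10, which binds CAR, is known to lie further upstream than this window.

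**Figure D2:**
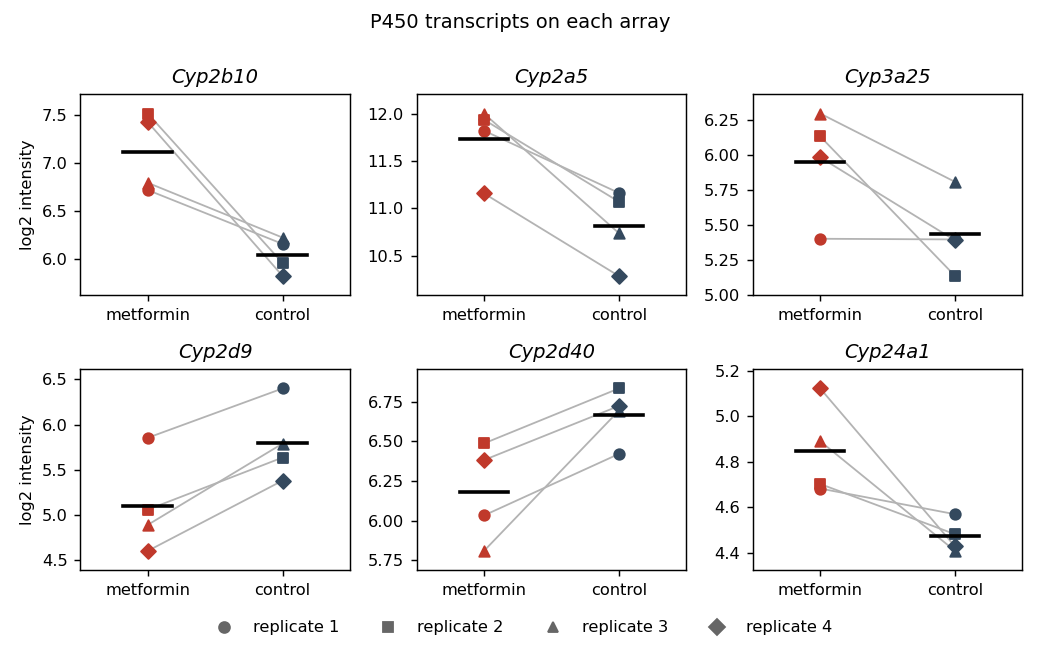
Log2 intensity of 6 P450 genes on each array, metformin left and control right, with grey lines joining samples of the same replicate number and black bars for group means (n = 4 each). Cyp2b10 and Cyp24a1 do not overlap between the groups. Within each of the 6 genes the 4 lines run one way, and the line of Cyp3a25 replicate 1 is nearly level.

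The remaining genes of these subfamilies did not follow Cyp2b10 closely. Cyp2a12, a steroid hydroxylase next to Cyp2a5 in sequence, had 8.46, 8.93, 9.42 and 8.23 with metformin and 7.99, 8.50, 8.69 and 7.93 in controls. All 4 pairs were higher with metformin and the groups overlapped, with a difference of 0.48 (SE 0.27) and a limma adjusted p of 0.324. The female-predominant liver genes Cyp2b9 and Cyp2b13 differed by 0.01 and -0.19, and Cyp2b23 by -0.04. The 8 genes of the Cyp2a, Cyp2b, Cyp2f and Cyp2g subfamilies, all on chromosome 7, had a median difference of 0.03. Cyp2f2, a bioactivating oxidase of periportal hepatocytes and airway cells, differed by 0.02 (SE 0.26).

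The Cyp2d genes, mouse relatives of the human drug oxidase CYP2D6, were lower with metformin in 5 of 5 cases by value, with a median of -0.31, and none passed the threshold without the block. Cyp2d40 had 6.03, 6.49, 5.81 and 6.38 with metformin, against 6.42, 6.83, 6.69 and 6.72 in controls. Each metformin array lay below its numbered control, although metformin replicate 2 was above control replicate 1. The difference was -0.49 (SE 0.17), with limma adjusted p of 0.115 without and 0.0695 with the block. Cyp2d26, Cyp2d10 and Cyp2d22 differed by -0.31, -0.29 and -0.18 (limma adjusted p 0.374, 0.504 and 0.551). Of the 5 genes, Cyp2d9, Cyp2d40 and Cyp2d10 were lower in all 4 pairs.

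The Cyp3a genes, which oxidise steroids and many drugs and are classical PXR targets, were higher with metformin in 3 of 3 cases by value, with a median of 0.37, and none passed. Whether their probes share signal was not tested. Cyp3a25 had 5.40, 6.13, 6.29 and 5.98 with metformin and 5.39, 5.13, 5.81 and 5.39 in controls. Metformin replicate 1 stood with the control arrays, and the other metformin arrays lay above all of them. The difference was 0.52 (SE 0.21) or 1.43-fold, with a limma adjusted p of 0.17, and of 0.0478 without metformin replicate 1. Cyp3a13 had 10.52, 10.96, 11.03 and 10.48 with metformin and 10.48, 10.28, 10.48 and 10.27 in controls, a difference of 0.37 (SE 0.15) with a limma adjusted p of 0.182. Its 3 probes gave 0.26 to 0.37. Cyp3a11, the main PXR-inducible Cyp3a of mouse liver, had 8.20, 8.51, 9.06 and 8.20 with metformin and 8.26, 8.50, 8.39 and 8.17 in controls. Only metformin replicate 3 stood above the control range by more than 0.1, and the difference was 0.16 (SE 0.19, limma adjusted p 0.651).

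The Cyp2c genes, which epoxidise arachidonic acid and oxidise drugs, had differences on both sides of 0, with a median of -0.06 and 2 of 6 values positive. Cyp2c70, which makes the mouse-specific muricholic acids, had 10.82, 11.76, 10.24 and 11.001 with metformin and 10.55, 11.83, 10.70 and 10.65 in controls. Replicate 2 was the highest array of both groups, and the difference was 0.03 (SE 0.35, limma adjusted p 0.974). Cyp2c50 was lower in all 4 pairs, with a difference of -0.31 (SE 0.29, limma adjusted p 0.549). Cyp2c29, a target of CAR, had 4.90, 6.39, 6.17 and 4.63 with metformin against 5.73, 5.05, 5.10 and 5.51 in controls. Its pairs pointed both ways, with metformin higher by 1.35 and 1.06 in replicates 2 and 3 and lower in replicates 1 and 4, where the differences were -0.82 and -0.88. Cyp2c67, Cyp2c37 and Cyp2c40 lay between -0.19 and -0.05.

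Cyp2e1 and Cyp1a2 are pericentral hepatocyte enzymes, the first for ethanol and paracetamol and the second for caffeine and aromatic amines. Cyp2e1 had 10.59, 10.49, 11.19 and 10.12 with metformin and 10.68, 10.27, 10.43 and 9.77 in controls, a difference of 0.31 (SE 0.25, limma adjusted p 0.493). Cyp1a2 had 7.76, 7.26, 8.02 and 7.04 with metformin and 7.52, 7.20, 7.42 and 6.68 in controls, also 0.31 (SE 0.25, limma adjusted p 0.489). Both genes overlapped between the groups. The other Cyp1a2 probe gave -0.19, and Cyp1a2 was the single gene of the 12 with more than 1 probe whose probes differed in sign.

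**Figure D3:**
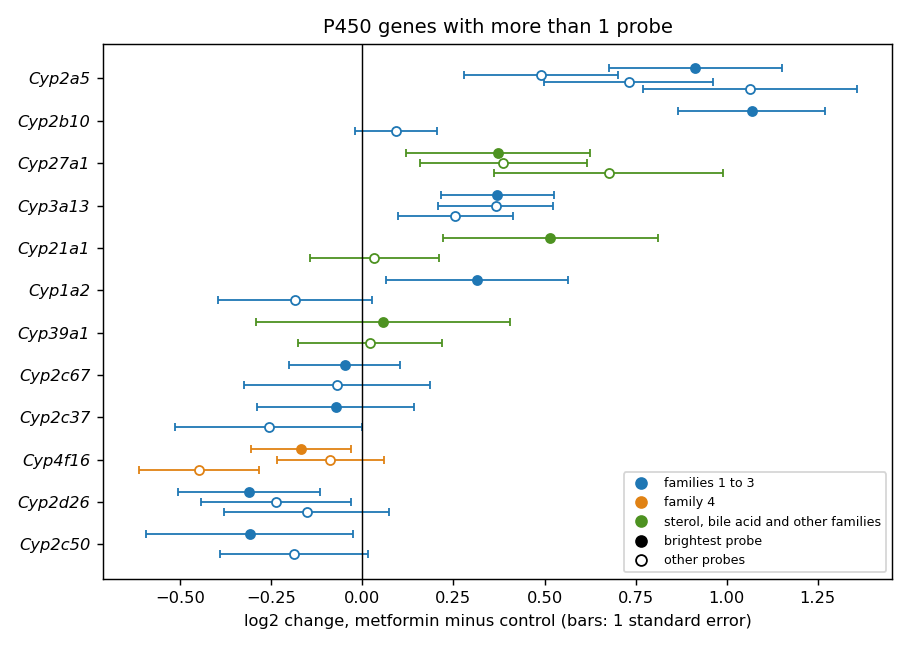
Difference in log2 intensity, metformin minus control, of every probe of the 12 P450 genes with more than 1 probe; filled points are the brightest probe of each gene, open points the others, and bars are 1 standard error. The 4 Cyp2a5 probes lie between 0.49 and 1.06, while the other Cyp2b10 probe lies at 0.09.

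Paired by replicate number, the difference had 1 sign in all 4 pairs for 19 of 44 P450 genes (43.2%), 14 higher and 5 lower, against 33.8% of all genes (18.2% higher and 15.6% lower). In families 1 to 3 it was 6 genes higher and 4 lower, in family 4 it was 4 higher and 1 lower, and in the remaining families 4 higher and none lower. For 17 of the 44 genes the SD of the 4 pair differences was below the SD of either group. This was not counted over all genes, so it shows nothing particular to P450 genes.

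**Figure D4:**
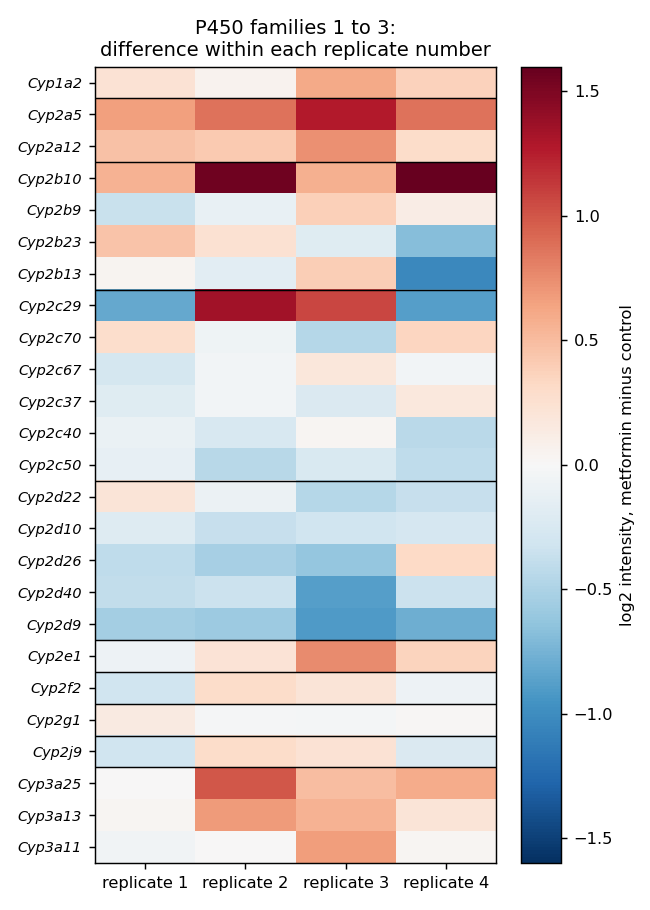
Difference in log2 intensity, metformin minus control, within each of the 4 replicate numbers for the 25 genes of families 1 to 3, grouped by subfamily, red for higher and blue for lower with metformin. Cyp2a5 and Cyp2a12 are red and Cyp2d9 and Cyp2d40 blue in all 4 columns, Cyp2b10 is deepest in replicates 2 and 4 (1.55 and 1.60), and Cyp2c29 has both colours.

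None of the 10 family 4 genes passed the threshold, beside 6.76% of all genes, with a median difference of -0.07 and a range of -0.40 to 0.59. None reached an unadjusted p under 0.05 in limma either, nor an adjusted p under 0.05 with the block. Cyp4b1, which oxidises medium-chain fatty acids and some protoxins, had 6.05, 7.64, 7.31 and 8.12 with metformin and 5.71, 7.46, 6.59 and 6.999 in controls. Replicate 1 was the lowest array of both groups, each pair was higher with metformin, and the difference was 0.59 (SE 0.47) with limma adjusted p of 0.486 without and 0.0754 with the block. Cyp4f13, of the leukotriene and fatty acid hydroxylases, had 8.37, 7.76, 7.94 and 7.87 with metformin and 7.71, 7.43, 7.77 and 7.72 in controls. Metformin replicate 2 lay just inside the control range, and the difference was 0.33 (SE 0.15, limma adjusted p 0.227). Cyp4f14 differed by 0.17 and Cyp4f16 by -0.17.

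Cyp4a14, the fatty acid ω-hydroxylase most used as a PPARα readout, had 6.96, 7.05, 8.03 and 6.58 with metformin and 6.88, 6.84, 7.46 and 6.19 in controls. Replicate 3 was highest and replicate 4 lowest in both groups, and the difference was 0.32 (SE 0.33, limma adjusted p 0.607). The other Cyp4a genes were at the dim end. Cyp4a31 averaged 4.58 with metformin and 4.98 in controls, and Cyp4a12a and Cyp4a12b, male-predominant arachidonic acid hydroxylases, were under 4.7 in both groups. Cyp4v3, a fatty acid hydroxylase, averaged 8.52 with metformin and 8.53 in controls, a difference of -0.01 (SE 0.21), and Cyp4x1 differed by -0.26 (limma adjusted p 0.454).

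Of the 9 genes of the sterol, bile acid and other families none passed the threshold, beside 6.76% of all genes. They had 6 positive and 3 negative differences, a median of 0.17 and a range of -0.15 to 0.52. The 4 sterol and bile acid genes had a median of -0.04. Cyp27a1, the mitochondrial sterol hydroxylase of the acidic bile acid pathway, had 9.76, 9.08, 9.07 and 8.65 with metformin and 9.23, 8.41, 8.92 and 8.51 in controls. All 4 pairs were higher with metformin and the groups overlapped, with a difference of 0.37 (SE 0.25, limma adjusted p 0.418) and 0.37 to 0.68 over its 3 probes. Cyp7b1, the oxysterol 7α-hydroxylase, had 6.77, 5.86, 6.49 and 5.68 with metformin and 7.06, 6.19, 6.003 and 6.12 in controls, a difference of -0.15 (SE 0.29, limma adjusted p 0.803). Replicate 1 was the highest array of both groups. Cyp8b1, the sterol 12α-hydroxylase that sets the share of cholic acid, was dim, at 4.55 with metformin and 4.69 in controls, and Cyp39a1, an oxysterol 7α-hydroxylase, differed by 0.06.

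Cyp24a1, the vitamin D 24-hydroxylase best known from kidney, was the second gene whose groups did not overlap. It had 4.68, 4.70, 4.89 and 5.12 with metformin, against 4.57, 4.48, 4.41 and 4.43 in controls, and lay among the 25% of genes with the lowest means. The difference was 0.38 (SE 0.13) with a limma adjusted p of 0.106. Cyp21a1, the adrenal steroid 21-hydroxylase, averaged 6.25 with metformin and 5.73 in controls by its brighter probe (limma adjusted p 0.333), and its other probe differed by 0.03. Cyp20a1, a P450 with no settled substrate, differed by 0.17 (SE 0.14), Cyp26a1, which clears retinoic acid, by 0.17, and Cyp11b2, the aldosterone synthase, by -0.06.

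The listed electron donors and genes of haem synthesis and breakdown mostly did not pass, with 1 of 16 measured genes lower, none higher and a median of -0.04. Over all genes 3.44% were called lower and 3.32% higher. The gene that fell was Cyb5b, the outer mitochondrial membrane cytochrome b5. It had 10.77, 10.71, 10.50 and 10.48 with metformin, against 11.26, 11.24, 11.23 and 11.09 in controls. All metformin arrays were below all control arrays, with a difference of -0.59 (SE 0.11) and a limma adjusted p of 0.0217, which lay between 0.0231 and 0.073 when 1 array was left out and passed in 4 of those 8 fits. Cyb5a, the microsomal cytochrome b5 that supports many P450 reactions, differed by 0.34 (limma adjusted p 0.234), and Alas1, the first and limiting enzyme of haem synthesis and itself a CAR and PXR target, by 0.17 (limma adjusted p 0.432).

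Among 23 measured receptors and factors that control P450 genes, 1 rose and 1 fell, with a median of 0.11, beside 6.76% of all genes called. Nr1i2 encodes PXR, the receptor for drugs and bile acids that drives Cyp3a and Cyp2b genes. It had 6.86, 7.11, 7.06 and 6.94 with metformin, against 6.43, 5.66, 6.07 and 6.04 in controls. The groups did not overlap, and the difference was 0.94 (SE 0.16) or 1.92-fold, with a limma adjusted p of 0.0146. The call was lost without metformin replicate 2 or 3 (limma adjusted p 0.0512 and 0.052). Its partner Rxra differed by 0.46 (limma adjusted p 0.0869), while the related Rxrb differed by -0.21 (limma adjusted p 0.303). Nr1h4, the bile acid receptor FXR, differed by -0.52 (limma adjusted p 0.221). The listed factor Foxa2 differed by -0.47, with groups that did not overlap (limma adjusted p 0.0542). By value, 15 of the 23 genes were higher and 8 lower. CAR itself and Ahr were not analysed here.

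Nfe2l2, the oxidative stress factor NRF2 that also acts on Cyp2a5 in mice, was the factor that fell. It had 8.72, 8.14, 8.10 and 8.06 with metformin and 8.60, 9.20, 9.14 and 9.16 in controls, a difference of -0.77 (SE 0.19) with a limma adjusted p of 0.0431. Replicate 1 ran against the other 3 pairs, the adjusted p was 0.0676 with the replicate block in limma, and the call passed in 2 of 8 fits that left out 1 array. The mean of its 2 probes differed by -0.32 (limma adjusted p 0.15). The dimmer probe therefore did not fall, and the call rests on the brighter probe.

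None of 4 Ahr targets outside the family passed (median 0.16), with Ahrr at 0.26 and Ugt1a6a at 0.25. Of 9 measured genes of bile acid synthesis and conjugation, Hsd3b7 alone passed and the median was -0.01. Over all genes 6.76% passed without the block, and with it 4.41% were called higher. Hsd3b7, the 3β-hydroxysteroid dehydrogenase that acts on the products of the 7α-hydroxylases, had 10.97, 11.27, 11.19 and 10.95 with metformin, against 10.27, 10.46, 10.45 and 10.38 in controls. The groups stood well apart, with a difference of 0.71 (SE 0.12) or 1.63-fold and a limma adjusted p of 0.014, and the call passed with any 1 array left out. None of 10 other oxidative drug metabolism genes passed without the block, and with it Fmo1, a flavin monooxygenase, was higher (difference 0.80, limma adjusted p 0.18 without and 0.0169 with the block).

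Zonation markers were set beside the P450s because many P450s are pericentral. Of 10 measured pericentral markers 1 fell and none rose, with a median of -0.09, and of 8 periportal markers 2 rose and none fell, with a median of 0.28. Over all genes 3.32% were called higher and 3.44% lower, and a shift of zone was not tested. The pericentral gene was Slc1a2, a glutamate transporter, at 5.95 with metformin and 6.81 in controls (difference -0.86, SE 0.19, limma adjusted p 0.0307). The periportal genes were Hal, the histidine ammonia lyase (difference 1.07, SE 0.25, limma adjusted p 0.0368), and Aldh1b1, a mitochondrial aldehyde dehydrogenase (difference 0.64, SE 0.13, limma adjusted p 0.0245). Arg1, the urea cycle arginase, had a difference of -0.76 (SE 0.23) and did not pass (limma adjusted p 0.0761 without and 0.0693 with the block, and 0.0178 in the 1 of 8 fits with an array left out that called it). Of the 8 periportal differences 5 were positive and 3 negative, and of the 10 pericentral differences 4 were positive and 6 negative. Leaving out 1 array kept the call of Slc1a2 in 1, Hal in 3 and Aldh1b1 in 4 of 8 fits.

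**Figure D5:**
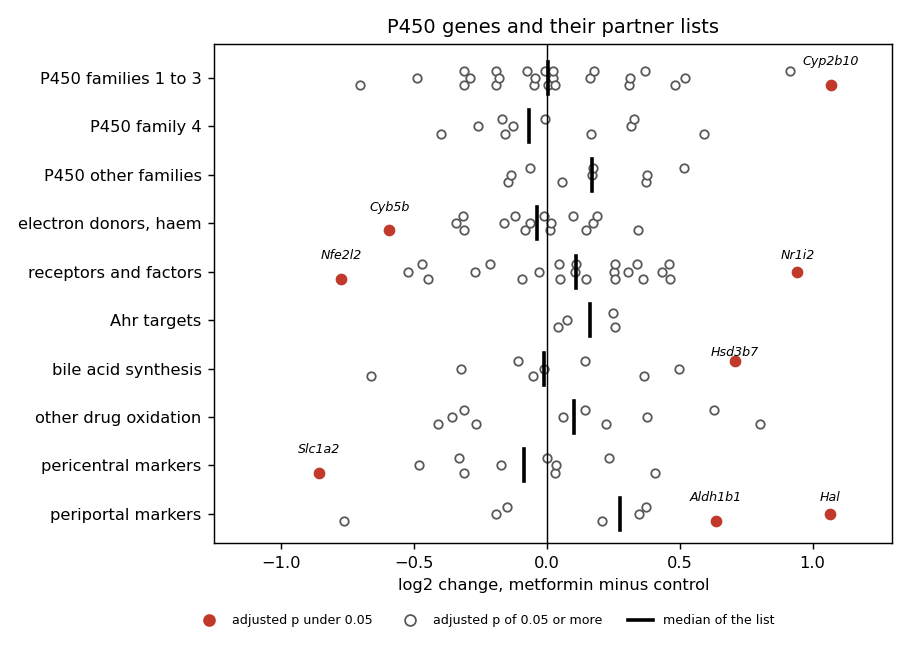
Difference in log2 intensity, metformin minus control, of the P450 genes by family group and of the measured genes of 7 related lists, with filled points for limma adjusted p under 0.05 and a black bar at each list's median. Cyp2b10 is the only filled P450 point, and each related list holds at most 2 filled points.

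Hepatocyte markers did not pass (0 of 8 measured), and the log2 of their summed intensity ran from 14.65 to 15.07 with metformin and from 14.67 to 15.07 in controls. The brightest markers weigh most in such a sum. By value 4 hepatocyte markers were higher and 4 lower, with Alb at 0.39 and Ahsg at -0.56 (limma adjusted p 0.278 and 0.357). Of the measured markers of other liver cells none passed. Over all genes 6.76% passed, and with the block 4.41% were called higher and 4.08% lower. Among the 25% of genes with the lowest means were 1 of 8 sinusoidal endothelial, 0 of 3 cholangiocyte, 1 of 5 Kupffer cell, 0 of 7 stellate cell and 2 of 2 lymphocyte markers. The log2 summed intensity of 8 sinusoidal endothelial markers ran from 9.59 to 11.47 with metformin and from 9.52 to 10.81 in controls, with all 8 differences positive, a median of 0.35 and 3 genes higher with the block. For 3 cholangiocyte markers it ran from 9.01 to 10.05 with metformin and from 8.52 to 9.44 in controls, with all 3 differences positive and 1 gene higher with the block. Krt7, a bile duct keratin, had 4.85, 6.63, 4.87 and 7.21 with metformin and 4.84, 4.44, 5.08 and 4.75 in controls, so the 2 arrays high in Krt7 are the 2 highest in Cyp2b10. For 5 Kupffer cell markers the sum ran from 7.72 to 9.48 with metformin and from 7.99 to 9.90 in controls (1 gene lower with the block), for 7 stellate cell markers from 11.30 to 12.23 with metformin and from 11.22 to 12.09 in controls, and for 2 lymphocyte markers from 5.32 to 5.48 with metformin and from 5.28 to 5.94 in controls. The part of these cells in the Cyp2b10 difference was not tested.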

How the data were processed

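The deposited table holds log2 bead intensities for 16304 probes on 8 arrays. The authors used limma 3.26.9 and R 3.2.3, per the submitters' processing notes, which give these tools no role. Background correction, normalization and probe filtering are not given in the sources used here. Array medians differ by at most 0.0008, and the deposited log2 values were tested as they stood. Detection p-values were not used. Precision is limited by there being 4 arrays a group.

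Gene symbols came from the platform annotation and were updated by Entrez number with a RefSeq table of GRCm38.p6. Of 16304 probes, 15301 had 1 symbol and 1003 none; 15294 matched RefSeq and 7 kept the platform's symbol. The brightest probe by mean over the 8 arrays stood for its gene. Probe sequences were not at hand, so shared signal within the Cyp2a, Cyp2b, Cyp2c, Cyp2d, Cyp3a and Cyp4a subfamilies could not be checked. Metformin and control arrays (4 each) were compared with lmFit and eBayes in limma 3.58.1 on R 4.3.3, two-sided, with Benjamini-Hochberg adjustment over 10944 genes and a threshold of 0.05. Scripts were tested on simulated data.

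The replicate number was not in that fit. Deviations from the group means correlated over genes at 0.32, 0.28, 0.15 and 0.23 for samples of the same number, and at -0.28 to 0.14 for the others. The numbers were therefore taken to pair the samples, on the evidence of the data alone, and block values stand beside results whose call they change. Standard errors in the text and figures are from the fit without the block. With the block the standard error was 0.12 instead of 0.29 for Cyp2d9, and 0.22 instead of 0.20 for Cyp2b10.

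The P450 members and gene lists were chosen with earlier results of these data known. The rule named every member past the threshold, the 5 members of each family group with the smallest p among those that did not pass, the 3 brightest members of each group, fixed readout genes such as Cyp1a2, Cyp3a11 and Cyp4a14, and up to 4 genes of each list. Other members and list genes were named after their values were seen, to describe their subfamily or role. The counts by pair sign, overlap and unadjusted p were added after seeing the data. Alternatives were the replicate block, leaving out each array, every probe, the mean of probes, leaving out the dimmest 25% of genes, array weights, an intensity trend with robust variance, an offset of 16 and quantile normalization. Promoters were the 250 bases before each start, found for 32 of the 44 members.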

Additional observations from a re-analysis of the deposited data

Results flagged for a closer look

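In 4 of the 88 groups of 4 arrays (44 P450 genes in each of the 2 treatments), 1 array lay far from the other 3 by Dixon's criterion, which chance alone flags in about 1 of 20 groups. All 4 were control arrays. Cyp2c70 was at 11.83 in control replicate 2, with the other controls between 10.55 and 10.70. Cyp4x1 was at 5.15 in control replicate 2, with the others between 4.29 and 4.36. Cyp4f16 was at 7.88 in control replicate 3, with the others between 7.76 and 7.77. Cyp2c67 was at 9.88 in control replicate 4, with the others between 10.21 and 10.25.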

How the results depend on the processing

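Over 16 alternatives the P450 calls stayed few and all lay in families 1 to 3, which hold 25 of the 44 members. The counts of these families therefore equal those of all P450 genes. With the replicate block 3 P450 genes passed (Cyp2b10, Cyp2a5, Cyp2d9). With the dimmest 25% of genes left out, array weights, an intensity trend with robust variance, or an offset of 16, 2 passed each time (Cyp2b10, Cyp2a5). With every probe, the mean of probes or quantile normalization 1 passed. Leaving out 1 array gave 0 to 2, with 0 without control replicate 2, control replicate 4 or metformin replicate 2, and 2 without control replicate 1, metformin replicate 1 or metformin replicate 4. Family 4 and the sterol, bile acid and other families had 0 in all 16. The limma adjusted p over the alternatives ran from 0.0136 to 0.0559 for Cyp2b10, from 0.0153 to 0.148 for Cyp2a5 and from 0.0207 to 0.351 for Cyp2d9. The cause was not tested. Over all genes, 740 passed, 929 with the replicate block (613 shared), 1189 with array weights, and 174 to 794 with 1 array left out, where fewer samples enter the fit. The median of families 1 to 3 ran from -0.11 to 0.07 with 1 array left out. Some differences changed sign when 1 array was left out: Cyp2c70 from -0.24 to 0.32, Cyp3a11 from -0.024 to 0.26, Cyp4v3 from -0.12 to 0.15, Cyp7b1 from -0.335 to 0.093, and the lymphocyte markers Nkg7 from -0.33 to 0.02 and Ptprc from -0.17 to 0.10. The block changed the call of no other named gene than Cyp2a5, Cyp2d9, Fmo1, Nfe2l2 and the cell markers Lyve1 and Fcgr2b (both higher) and Vsig4 (lower). The 10 P450 genes among the 25% of genes with the lowest means lie too near the floor for a fold change to be read closely.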
